A study of Mus musculus with 2 samples.

Results

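The forkhead genes encode the Fox transcription factors, which share a DNA-binding domain called the forkhead or winged helix. All protein-coding genes of the deposited gene tables whose GENCODE symbol is Fox followed by a subfamily letter from a to s and a number were taken, which gave 44 genes of 21474 protein-coding genes and of 43346 Ensembl genes in all. They were described in total RNA-seq of whole mouse intestine at embryonic day 15.5, from healthy B6NCrl embryos of both sexes. Both libraries belong to 1 group without a treatment or a genotype: replicate 1 was a pool of intestines from 78 embryos, and replicate 2 a pool from 62 embryos. Each was made from 10 ng of RNA longer than 200 nt with ERCC spike-ins added. The libraries held 34406872 and 40669822 counts, of which the forkhead genes took 0.0780% and 0.0829% of the counts on genes. With 1 group and n = 2, levels, their spread and their order were described, and no test between conditions was made. The spread between the libraries covers the pooling, the dissection and the library preparation.

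Fox proteins bind related DNA sites, and their jobs differ mainly by where and when each is made. In the gut, FoxA proteins open chromatin in the endoderm that becomes the epithelium, while FoxF proteins and Foxl1 act in the surrounding mesenchyme, where hedgehog signals from the epithelium switch FoxF genes on. Other members work in many tissues: Foxm1 drives genes of cell division, FoxO proteins are held out of the nucleus by insulin signalling, and FoxP proteins act mostly as repressors.

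The family is recognised by a recognition helix that lies in the major groove of DNA. A stretch of 24 bases coding for 8 residues of it, from an asparagine through an arginine-histidine pair to a serine or threonine, was found in the GENCODE M21 transcripts of 41 of the 44 members. No match was found for Foxh1, Foxr1 and Foxr2. The stretches of 10 detected members follow, from the FoxF, FoxL, FoxA, FoxM, FoxO, FoxN and FoxP subfamilies, 5′ to 3′ on the coding strand, with capitals for bases that differ from Foxf1.
Foxf1: aactccgtgcgccacaacctgtcg
Foxf2: aactccgtgcgccacaacctCtcg
Foxl1: aacAGcAtCcgccacaacctgtcg
Foxa1: aactccAtCcgccacTCGctgtcC
Foxa2: aactccAtCcgccacTCTctCtcC
Foxa3: aactccAtCcgGcaTTCGctgtcC
Foxm1: aactcTAtTcgTcacaacctTtcT
Foxo3: aactccAtCcgGcacaacctgtcC
Foxn3: aactcAgtgAgAcacaacTtgtcA
Foxp4: aaTGccgtgcgccacaacctCAGC
Over the 41 members the stretch differed from that of Foxf1 by 1 to 10 bases, with a median of 6. Foxf2 differed by 1 base, Foxl1 by 4 and Foxp4 by 6. In the FoxA stretches the codon after the arginine-histidine pair is wholly in capitals, and in Foxp4 the last codon is. Over whole transcripts, of the 31-base words of Foxq1 65.9% also occur in A530084C06Rik, a gene annotated over it on the opposite strand. For the other members at 1 TPM or more the share of words that occur in another gene was at most 8.002%, in Foxo1.

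Levels are given in TPM, the transcript share of each gene after division by transcript length, which can be compared between genes. Detected means 1 TPM or more in replicate 1 and in replicate 2. Of the 44 forkhead genes 21 were detected (47.7%), against 62.7% of all protein-coding genes. The same 62.7% is the background for each count of detected partner, pathway or marker genes below. Levels of 10 TPM or more in each library were found for 10 members (22.7%), against 40.1% of protein-coding genes. The median detected forkhead gene stood at 7.43 TPM in replicate 1 and 7.82 TPM in replicate 2, against 17.7 and 17.8 TPM for the median detected protein-coding gene. The family's summed level was 400 ± 26.4 TPM (SD, n = 2), and Foxf1, Foxp1 and Foxn3 together made 54.7% and 57.6% of it. In these bulk libraries fewer cells of a type and less RNA per cell cannot be told apart.

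**Figure D1:**
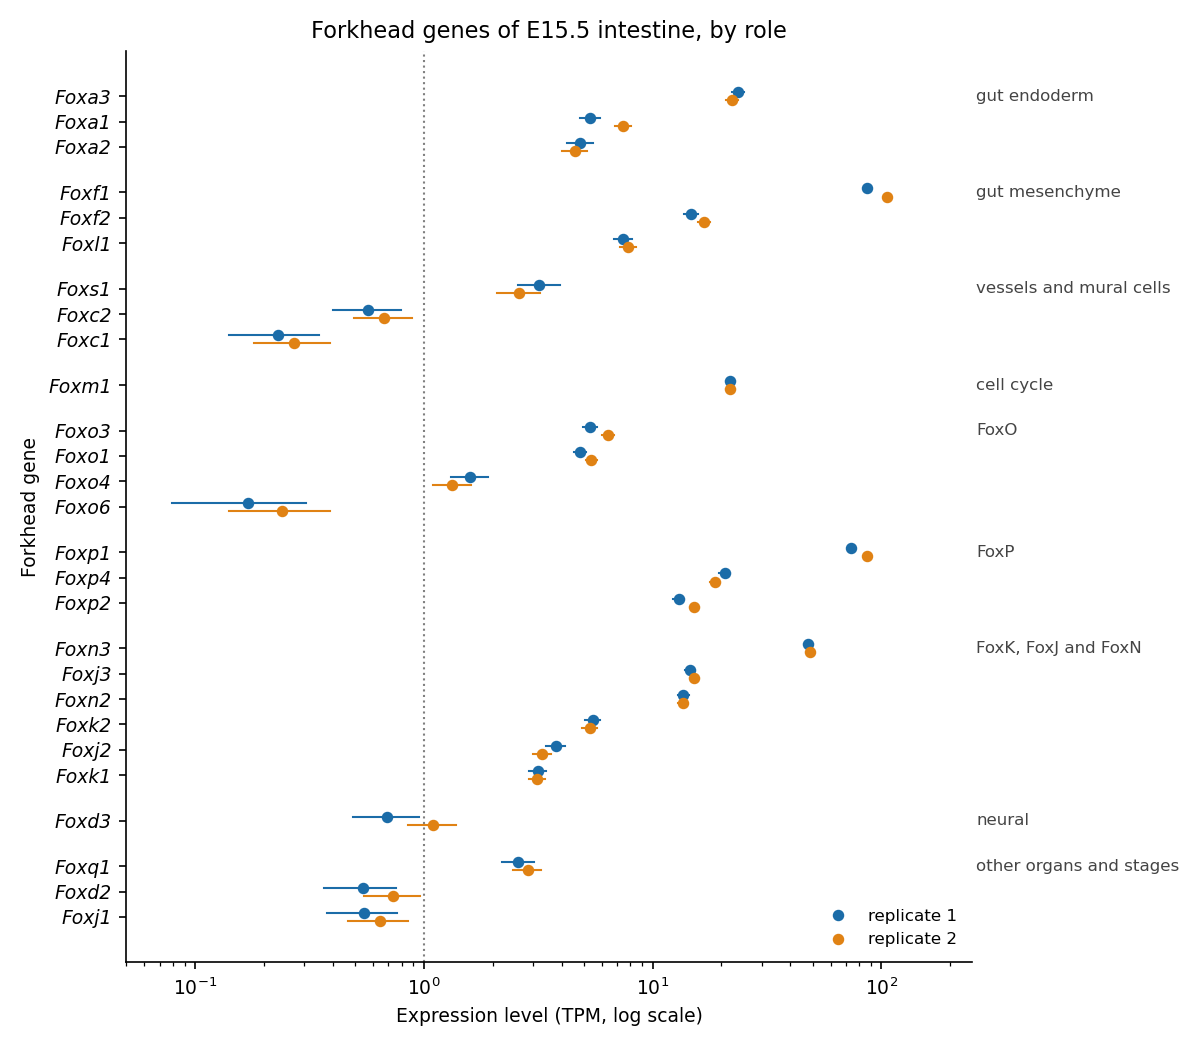
TPM (log scale) of the 27 forkhead genes with more than 5 counts in both libraries together, grouped by role, with replicate 1 and replicate 2 as points and lines for 95% Poisson intervals of the counts. Foxf1 and Foxp1 lie highest, near 100 TPM, and FoxC genes, Foxo6, Foxd2 and Foxj1 lie left of the dotted line at a TPM of 1.

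Of the endodermal members, Foxa3 was the highest. Foxa3 (chr7:19013284-19023538, minus strand, GRCm38), which in the adult is known from liver and gut epithelium, had 23.7 TPM in replicate 1 and 22.2 TPM in replicate 2. Foxa1 had 5.34 and 7.44 TPM, and Foxa2, the member needed first for the endoderm to form, had 4.82 and 4.56 TPM. Foxa3 therefore stood 4.44-fold and 2.99-fold above Foxa1, and 4.92-fold and 4.88-fold above Foxa2, on the TPM scale. Foxa1 was 1.11-fold and 1.63-fold above Foxa2. Together the 3 FoxA genes made 8.54% ± 0.499 of the family's TPM (SD, n = 2).

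The partners with which FoxA proteins share endodermal enhancers were present. All 8 of the listed partners were detected, against 62.7% of all protein-coding genes, with a median of 29.5 and 33.3 TPM. The highest were Cdx1, an intestinal homeobox factor, at 74.4 ± 4.57 TPM, Hnf4a, a nuclear receptor of gut epithelium, at 71.1 ± 0.170 TPM, and Gata4 at 36.2 ± 0.764 TPM (SD, n = 2 each). All 6 epithelial markers were detected as well, led by Cldn7, a tight-junction protein, at 848 ± 22.2 TPM. FoxA genes are also used by pancreas and liver, and the genes listed for both organs were detected. The 5 genes of pancreas acini summed to 5368 TPM in replicate 1 and 1866 TPM in replicate 2, and the 5 liver genes to 627 and 434 TPM. None of these genes was at 0, and the lowest, Prss2 in the first list and Ahsg in the second, averaged 88.8 and 24.6 TPM. In replicate 2, where both sums were lower, the log2 ratios of Foxa3, Foxa2 and Foxa1 to replicate 1 were -0.09, -0.07 and 0.41. Whether the listed genes were read from tissue of these organs was not tested, and neither was the part of these organs in the FoxA levels.

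The mesenchymal members held 29.9% ± 1.84 of the family's TPM (SD, n = 2), a share that overlapped that of the FoxP genes between the libraries. Foxf1, which the gut mesenchyme needs to form its muscle layers, was the highest forkhead gene, with 86.9 TPM in replicate 1 and 106 TPM in replicate 2 (4820 and 6845 counts). It ranked 1679 of the 21474 protein-coding genes. Foxf2, its close paralog in the same cells, had 14.7 and 16.8 TPM. Foxl1, a factor of the mesenchymal cells that lie just under the epithelium, had 7.43 and 7.82 TPM. The order was the same in both libraries, with Foxf1 5.91-fold and 6.30-fold above Foxf2 and Foxf2 1.98-fold and 2.15-fold above Foxl1.

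Hedgehog signalling lies upstream of the FoxF genes. All 11 listed hedgehog genes passed a TPM of 1 in both libraries, as did 62.7% of all protein-coding genes, with medians of 11.6 and 11.2 TPM. The ligand Ihh averaged 25.03 ± 1.27 TPM and was above Shh, at 6.53 ± 1.46 TPM. The signal transducer Smo averaged 23.4 ± 0.467 TPM, the receptor Ptch1 20.9 ± 0.0354 TPM and the inhibitor Hhip 18.3 ± 0.721 TPM (SD, n = 2 each). All 8 Wnt and BMP ligands and enhancers of the mesenchyme were detected too. Bmp4 led them with 52.8 ± 6.02 TPM, followed by Wnt5a with 21.2 ± 2.58 TPM. The 6 mesenchyme and 6 smooth muscle markers were all detected, with medians of 382 and 415 TPM and of 578 and 566 TPM in replicates 1 and 2. Col3a1, a collagen chain, averaged 1400 ± 117 TPM, and Acta2, the actin of smooth muscle, 1274 ± 31.8 TPM.

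Of the vascular members only Foxs1 was detected, a factor described in pericytes, with 3.20 and 2.60 TPM. Foxc2, which lymphatic vessels need for their valves, had 0.570 and 0.670 TPM, and its paralog Foxc1 had 0.230 and 0.270 TPM. Foxc2 exceeded Foxc1 2.48-fold in both libraries, but these ratios rest on 36 and 49 counts against 21 and 29 counts. The cells themselves were represented: all 6 endothelial markers and all 5 mural cell markers were detected, among them Egfl7 at 98.9 ± 6.07 TPM and Kcnj8 at 36.1 ± 2.55 TPM. All 4 mesothelial markers were detected, led by Upk3b at 55.7 ± 2.28 TPM.

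Foxm1, the forkhead factor of dividing cells, had 21.9 TPM in each library and the smallest spread of all members at 10 TPM or more (SD 0.0283 TPM, n = 2). All 14 of its listed mitotic targets and partners were detected, against 62.7% of all protein-coding genes. The kinase Cdk1 averaged 355 ± 15.5 TPM, the survivin gene Birc5 268 ± 18.4 TPM, the anaphase activator Cdc20 189 ± 1.00 TPM and the cyclin Ccnb1 176 ± 8.61 TPM. The lowest was Lin54, a DNA-binding subunit of the complex that recruits Foxm1, at 10.5 ± 0.707 TPM.

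The FoxO genes, which restrain growth and protect from oxidative stress when insulin signalling is low, held 3.16% ± 0.0448 of the family's TPM. Foxo3 had 5.33 and 6.38 TPM, Foxo1 4.82 and 5.39 TPM, and Foxo4 1.59 and 1.33 TPM. Foxo6, known from neurons, had 0.170 and 0.240 TPM on 10 and 17 counts. Foxo3 was 1.11-fold and 1.18-fold above Foxo1, so the pair was nearly level. The 6 genes of the kinase and phosphatase list were all detected, with Akt1, which phosphorylates FoxO proteins, highest at 112 ± 7.96 TPM. Of 14 FoxO target genes 12 were detected, against 62.7% of all protein-coding genes. The antioxidant enzymes Cat at 108 ± 1.20 TPM and Sod2 at 48.9 ± 0.403 TPM led them. Not detected were Bcl6 at 0.755 ± 0.00707 TPM and Trim63 at 0.715 ± 0.205 TPM.

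The FoxP genes held 28.5% ± 0.355 of the family's TPM, and most of it came from Foxp1. Foxp1, a repressor made in many tissues, had 73.9 TPM in replicate 1 and 86.3 TPM in replicate 2. Foxp4 had 20.7 and 18.7 TPM, and Foxp2, best known for speech circuits and also made in gut and lung, had 13.0 and 15.2 TPM. Foxp1 stood 5.69-fold and 5.68-fold above Foxp2, while Foxp4 stood 1.59-fold and 1.23-fold above it. Foxp3, the factor of regulatory T cells, had 0.0300 TPM in replicate 1 and was listed at 0 in replicate 2. None of 6 T cell markers was detected, and their highest value was 0.970 TPM.

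Foxk1, Foxk2, Foxj2, Foxj3, Foxn2 and Foxn3, which are made in many tissues, held 22.3% ± 1.32 of the family's TPM. All 6 were detected, while Foxj1, Foxn1 and Foxn4 of the same subfamilies, which have narrower roles, were not. Foxn3, a repressor linked to the cell cycle checkpoint, had 47.9 and 48.8 TPM, 3.51-fold and 3.61-fold above its paralog Foxn2 with 13.6 and 13.5 TPM. Over complete coding transcripts alone the log2 ratio of Foxn3 to Foxn2 was 1.15, against 1.83 over all transcripts. Foxj3 had 14.5 and 15.2 TPM and its paralog Foxj2 3.78 and 3.28 TPM. Foxk2 had 5.47 and 5.32 TPM and Foxk1 3.14 and 3.12 TPM. FoxK proteins bring the deubiquitinase Bap1 and the Sin3 repressor to DNA. All 5 of their listed partners were detected, against 62.7% of all protein-coding genes. Bap1 averaged 53.9 ± 0.431 TPM and Sin3a 21.9 ± 0.304 TPM.

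The members of neural tissue and of other organs and stages were mostly near 0. Foxq1, a factor of stomach mucus cells and hair, was the 1 member of these 20 that was detected, with 2.58 and 2.84 TPM, and the overlap with A530084C06Rik applies to these values. Foxd3, a factor of neural crest cells, had 0.690 TPM in replicate 1 and 1.10 TPM in replicate 2, so it passed a TPM of 1 in replicate 2 only. All 7 neural crest and glial markers were detected, with Ednrb, an endothelin receptor, highest at 106 ± 14.3 TPM. Foxd2 had 0.540 and 0.730 TPM. Foxj1, the switch for motile cilia, had 0.550 and 0.640 TPM, and none of 6 genes of multiciliated cells was detected in both libraries.

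Between 1 and 5 counts in the libraries together were listed for 11 members, among them Foxh1 with 0.10 and 0.060 TPM and Foxd1 with 0.0400 and 0.0200 TPM. Foxd4, Foxp3, Foxi1, Foxn1, Foxb1, Foxe1, Foxi2 and Foxr2 had counts in 1 library and were listed at 0 in the other. No count was listed for 6 members in either library, namely Foxe3, Foxn4, Foxb2, Foxi3, Foxl2 and Foxr1. At the depth of these libraries 0 counts still allow up to 3 counts, which is a TPM of 0.0686 to 0.163 for those 6 genes. This limit covers counting error only. Foxd1 marks kidney stroma, and none of 4 kidney genes was detected. Foxl2 marks the ovary, and 2 of 4 gonad genes were detected, Fst and Gata4. Gata4 is also on the list of endoderm partners. Nr5a1, the gonadal nuclear receptor, had 0.910 and 0.040 TPM and Amh 0.050 and 0.020 TPM. Of 6 stomach genes 3 were detected, with Tff1 highest at 7.29 ± 0.651 TPM.

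Of 13 members whose transcripts have 1 exon 3 were detected, against 25.1% of single-exon protein-coding genes. Of 31 members with several exons 18 were detected, against 65% of such protein-coding genes. The highest single-exon member was Foxl1, with a mean of 7.63 TPM.

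When the 21 detected members were put in order of their mean, 10 of the 20 neighbouring pairs did not overlap between the libraries. By gene TPM Foxf1, Foxp1, Foxn3, Foxa3, Foxm1 and Foxp4 kept this order without overlap down to Foxf2. These are library values, without counting error. The 95% Poisson intervals of Foxa3 and Foxm1 overlapped in both libraries, so counting error leaves their order unresolved. In replicate 1 these intervals were 22.3 to 25.2 and 20.9 to 22.9 TPM. Intervals also overlapped for Foxm1 and Foxp4 in replicate 1 only, and for Foxp4 and Foxf2 in replicate 2 only. From Foxf1 through Foxp1 and Foxn3 to Foxa3 the intervals stayed apart within each library. Over complete coding transcripts alone the step from Foxp4 to Foxf2 was not kept. By that sum Foxp4 had 15.6 and 14.78 TPM and Foxf2 14.69 and 16.81 TPM, so Foxf2 was the higher in replicate 2. From Foxf2 through Foxj3 and Foxp2 to Foxn2, neighbours overlapped, and so did those from Foxl1 through Foxa1, Foxo3, Foxk2 and Foxo1 to Foxa2. Neighbours from Foxk1 through Foxs1 to Foxq1 overlapped too. The order of those neighbours is therefore not resolved across the 2 libraries. Within each library some of them kept their order, such as Foxf2 above Foxj3 and Foxl1 above Foxa1. Others changed it, such as Foxp2 and Foxn2. Genes further apart in a run did separate in some cases, with Foxl1 above Foxo3 and Foxf2 above Foxn2 in every library.

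For 23 members with at least 50 counts in either library, the ratio log2((TPM of replicate 2 + 1)/(TPM of replicate 1 + 1)) ran from -0.22 for Foxs1 to 0.41 for Foxa1, with a median of 0.06. Over all 13955 protein-coding genes with such counts the median was 0.02. No member was more than 1.5-fold apart in either direction on this scale. Foxd3, at 0.690 and 1.10 TPM, was 1.59-fold higher in replicate 2 without the added TPM, and it passed the limit with a pseudocount of 0.1. Among those protein-coding genes 0.38% were more than 1.5-fold higher and 1.15% more than 1.5-fold lower in replicate 2. On the TPM scale 14 members were higher in replicate 2 and 9 lower. With spike-in counts as the scale the median of all detected genes moved to 0.27, and 22 members were higher and 1 lower, so these directions hold only relative to the other genes. Foxa1 had a count ratio of 1.37, with an exact binomial 95% interval of 1.20 to 1.55. Foxf1 had a count ratio of 1.197 (1.15 to 1.24). Of the 23 members the interval lay above 1 for 8, lay below 1 for 2 (Foxp4 and Foxj2) and held 1 for 13. These intervals cover counting error only.

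**Figure D2:**
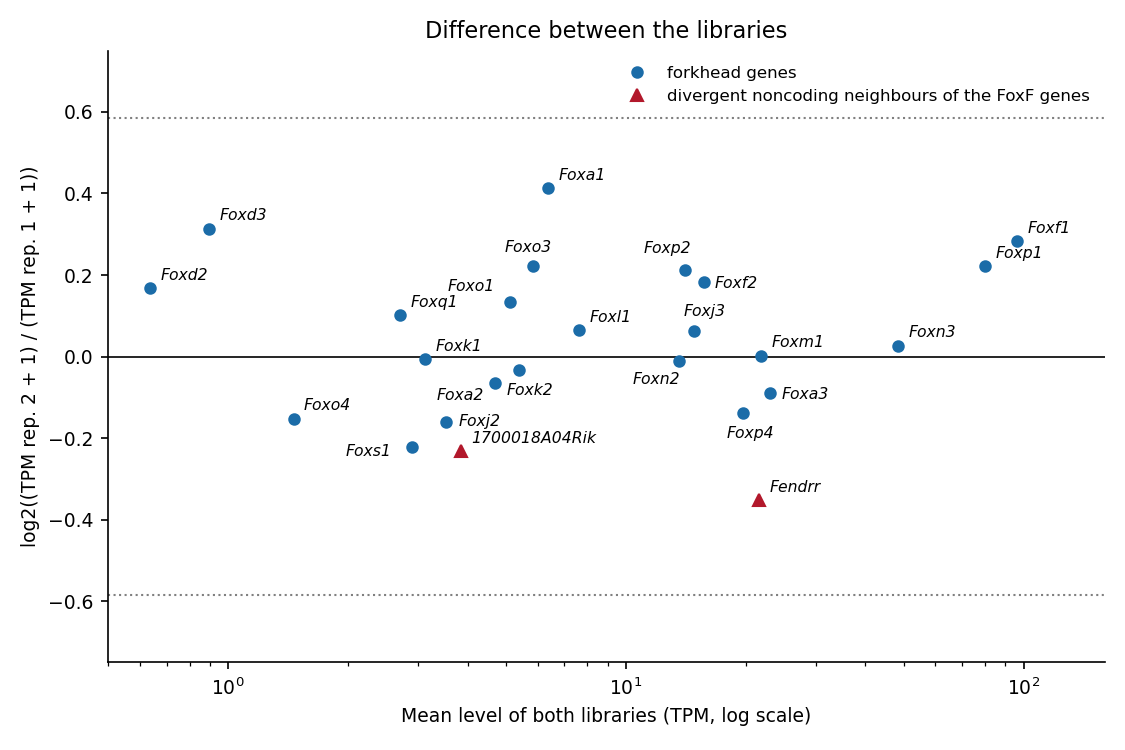
Log2 ratio of replicate 2 over replicate 1, with 1 added to each TPM, against the mean TPM (log scale) of 23 forkhead genes and of the noncoding neighbours Fendrr and 1700018A04Rik. Dotted lines mark 1.5-fold, and no point lies beyond them: Foxa1 is highest at 0.41 and Fendrr lowest at -0.35.

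Several of the leading members were spread over many transcripts, as the authors' transcript table assigns them. Of 10 members with a mean of at least 5 TPM and several transcripts, 3 had 90% or more of their TPM on 1 transcript: Foxa3, Foxo3 and Foxk2. Foxp1 had 32 listed transcripts, and Foxp1-225 led them with 41.2% and 40.3% of the gene's TPM. By expected counts Foxp1-204 led, with 55.0% and 45.5%. It has an effective length of 7078 bases, against 1749 bases for Foxp1-225. Foxn3 behaved alike: Foxn3-205, annotated with an incomplete coding region and an effective length of 467 bases, had 37.7% and 35.3% of the TPM but 10.6% and 9.77% of the counts. The complete transcripts Foxn3-201 and Foxn3-209 held 30.6% ± 1.11 and 23.4% ± 0.0212 of the TPM (SD, n = 2).

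Foxp2-207 held 47.4% and 44.7% of the Foxp2 TPM. Foxp4-204 held 33.3% and 32.5%, and Foxp4-202 26.7% and 32.7%, of the Foxp4 TPM. Of the leading pair of Foxj3, Foxj3-202 held 43.4% and Foxj3-201 42.9% in replicate 1, and 54.0% and 29.4% in replicate 2. The authors' credibility bounds overlapped between the libraries for each transcript. They were 4.57 to 7.73 and 6.69 to 9.52 TPM for Foxj3-202, and 4.48 to 7.56 and 2.95 to 5.61 TPM for Foxj3-201. A change in the proportions is therefore not resolved. Foxn2-201 held 83.7% and 89.2%. Foxm1-201 held 80.8% and 79.2%, and the rest of Foxm1 lay mostly on retained-intron transcripts, which held 18.8% and 20.1% of its TPM and 2.91% and 3.18% of its counts. An unnamed second transcript of Foxa3 held 9.60% in replicate 1 and was listed at 0 in replicate 2.

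Over all members complete coding transcripts held 84.4% ± 0.0783 of the TPM and 95.4% of the counts. Incomplete coding transcripts held 6.53% ± 0.864 and retained introns 6.26% ± 0.765 of the TPM (SD, n = 2). Where only complete coding transcripts were summed, Foxn3 averaged 26.1 ± 0.898 TPM instead of 48.4 ± 0.651 TPM, and Foxp1 57.5 ± 2.39 TPM instead of 80.1 ± 8.77 TPM. Their places in the family, 3 and 2, were the same by both sums. Foxp4 and Foxf2 exchanged places 6 and 7, and Foxp2 and Foxn2 exchanged places 9 and 10.

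**Figure D3:**
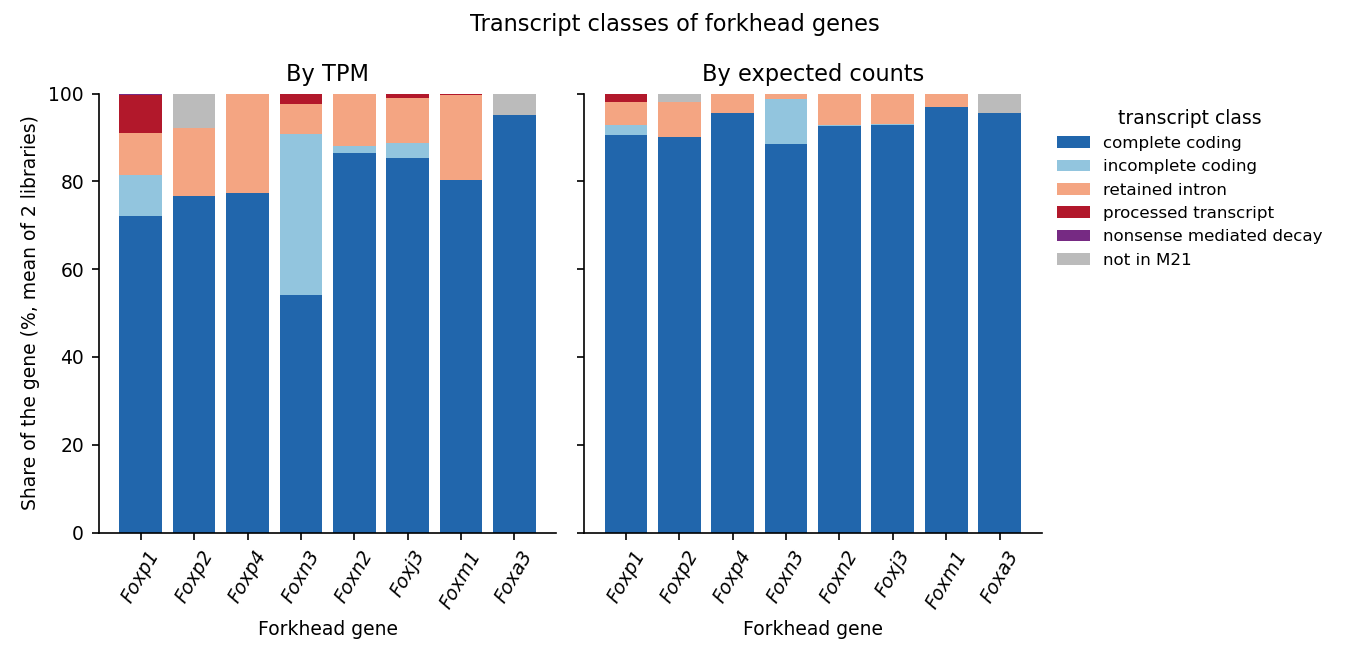
Share (%, mean of 2 libraries) of each GENCODE transcript class in 8 forkhead genes, by TPM on the left and by expected counts on the right. Foxn3 has the largest incomplete coding share by TPM, at 36.7%, and 10.3% by counts, and complete coding transcripts hold more of each gene by counts than by TPM.

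Both FoxF genes sit in a cluster with a FoxC gene and 1 further member. On chromosome 8, Foxf1 (chr8:121084386-121088144, plus strand, GRCm38) is followed by Foxc2, which starts 31.8 kb downstream, and Foxl1, which starts 43.6 kb downstream. On chromosome 13, Foxf2 (chr13:31625816-31631403, plus strand) lies between Foxq1, which starts 69.7 kb upstream, and Foxc1, which starts 181 kb downstream. In both clusters and both libraries the FoxF gene was the highest forkhead gene and the FoxC gene the lowest. Gm20388, a gene annotated across Foxf1, Foxc2 and Foxl1 on the same strand, had 3.54 and 2.08 TPM, more than Foxc2.

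**Figure D4:**
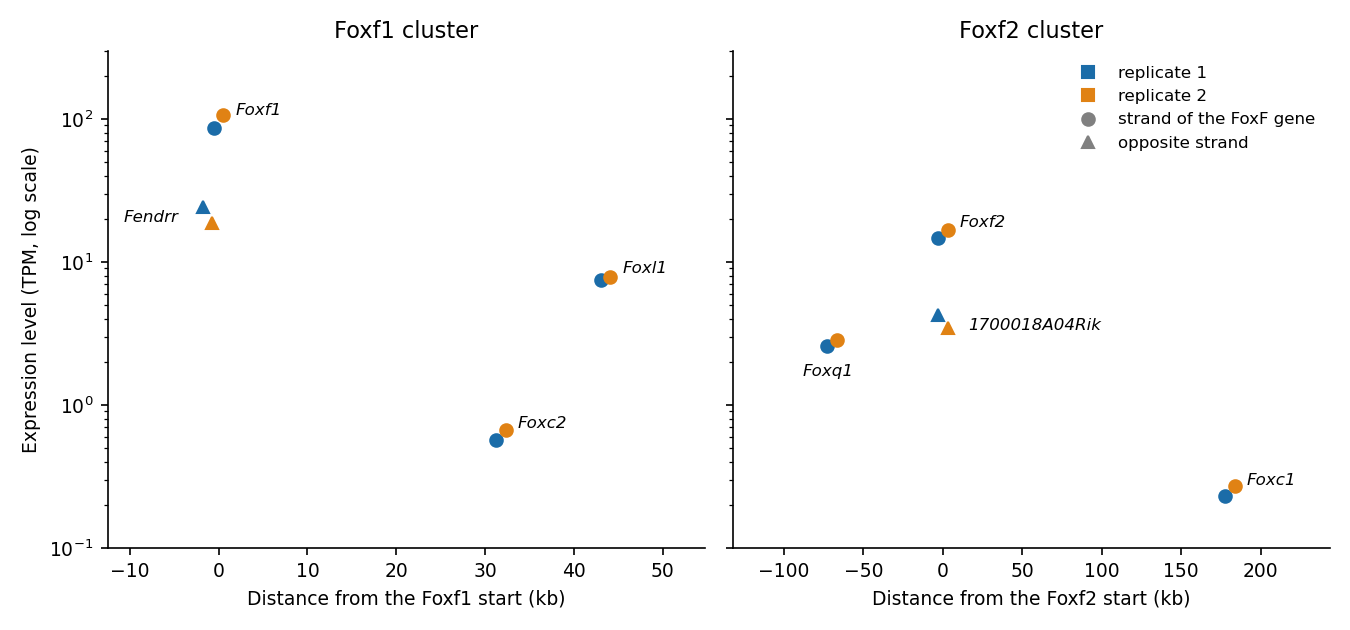
TPM (log scale) of the genes of the Foxf1 cluster (left) and the Foxf2 cluster (right) against the distance of their starts from the FoxF start in kb, with the libraries offset sideways. The FoxF genes lie highest and the FoxC genes lowest, and the opposite-strand neighbours are higher in replicate 1 while the FoxF genes are higher in replicate 2.

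Both FoxF genes have a noncoding gene that starts close by and runs the other way. Fendrr, a long noncoding RNA that mouse embryos need for heart and body wall, starts 1276 bases upstream of Foxf1 and had 24.4 and 18.9 TPM (927 and 870 counts). 1700018A04Rik, annotated as a long intergenic RNA, starts 24 bases upstream of Foxf2 and had 4.24 and 3.46 TPM (77 and 82 counts). Foxf1 exceeded Fendrr 3.57-fold and 5.62-fold, and Foxf2 exceeded 1700018A04Rik 3.46-fold and 4.86-fold. Both noncoding genes were lower in replicate 2 on the TPM scale, with log2 ratios of -0.35 and -0.23. The ratios of Foxf1 and Foxf2 were 0.28 and 0.18. That of 1700018A04Rik rests on 77 and 82 counts, and no counting interval was made for the noncoding genes. With spike-in counts as the scale the noncoding pair stood at -0.09 and -0.02 and Foxf1 at 0.55. The labels do not say whether counting used strand. Foxq1 had 157.93 and 202.63 expected counts, and A530084C06Rik on the opposite strand had 28.07 and 35.37. In each library these fractions add up to whole counts, so reads there were divided between genes on opposite strands. Reads of overlapping opposite genes cannot be told apart.

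The 250 bases before the starts of Foxf2 and Fendrr are shown because they lie at these divergent starts. They come from RefSeq (GRCm38.p6), each on the strand of its gene, with capitals for matches to the forkhead letters TGTTTAC and the GC box GGGCGG on either strand. The start of 1700018A04Rik lies within the Foxf2 window. The table used holds no promoter of Foxf1.
Foxf2 chr13:31625566-31625815, plus strand: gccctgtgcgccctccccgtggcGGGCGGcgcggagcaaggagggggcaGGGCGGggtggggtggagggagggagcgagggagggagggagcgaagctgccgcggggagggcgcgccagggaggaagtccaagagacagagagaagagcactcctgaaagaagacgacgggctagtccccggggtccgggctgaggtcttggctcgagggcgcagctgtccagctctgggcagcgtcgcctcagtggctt
Fendrr chr8:121083111-121083360, minus strand: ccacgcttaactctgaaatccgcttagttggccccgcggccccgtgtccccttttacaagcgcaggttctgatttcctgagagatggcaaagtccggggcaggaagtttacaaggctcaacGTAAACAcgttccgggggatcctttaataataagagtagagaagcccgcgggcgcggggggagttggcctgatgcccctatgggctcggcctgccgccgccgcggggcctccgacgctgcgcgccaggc
The Foxf2 window holds GC boxes and no forkhead match, and the Fendrr window holds 1 forkhead match that begins 129 bases before the start. In windows of 300 bases, which reach 50 bases past the start, the forkhead letters occur in 3.65% of all 32851 promoters and in 1 of 33 promoters of 28 forkhead genes, that of Foxa1. The GC box occurs in 24 of the 33, against 35.7% of all promoters. The letters GACCACCC, which GLI factors of the hedgehog pathway bind, occur in none of the 33 and in 0.807% of all promoters. The forkhead promoters hold a median of 22 CpG pairs, against 7 over all promoters. A match is a run of letters and not a measured site, and no binding or methylation was measured here.

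Genes that start on the opposite strand within 5 kb were listed at other members too. Rhno1, a DNA damage factor that starts 56 bases from Foxm1, had 81.8 and 90.2 TPM and so exceeded Foxm1 in both libraries. Sympk, a factor of RNA 3′ end processing that starts 839 bases from Foxa3, had 25.22 and 24.98 TPM, close to Foxa3. Foxd2os, a noncoding gene that starts 384 bases from Foxd2, had 3.28 and 3.42 TPM, and Foxd2 was 0.165-fold and 0.213-fold of it. Gm12688, next to Foxd3, had 0.970 and 1.43 TPM, above the Foxd3 values in both libraries. These levels rest on 14 and 24 counts for Gm12688 and on 37 and 68 for Foxd3, and counting error was not compared. Gm20402, annotated over Foxo1 on the opposite strand, had 1.90 and 2.37 TPM on fractional counts of 26.75 and 38.93. Its reads cannot be told apart from those of Foxo1 where they overlap. Foxo6os and Foxl2os were listed at 0 in both libraries, beside members that were low or at 0 themselves.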

How the data were processed

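Gene and transcript tables of 2 libraries were used as deposited. Per the file headers they hold expected counts, TPM and FPKM, all as the authors made them, with posterior mean values and bounds of credibility intervals, which are treated as scores, and the percent of a gene's TPM on each transcript (isoform percent). Per the labels the assembly is mm10. For the aligner, the quantifier and the strand setting of the counting: not given in the sources used here. Symbols came from GENCODE M21 through Ensembl IDs without version, which matched 42462 of 43346 IDs. The members, the 9 role groups and the 21 context lists of 141 gene entries were chosen with earlier results of these data known.

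From the files, sums, means, SDs (n = 2) and ratios of TPM were computed in Python 3.11.15 with pandas 2.3.3 and scipy 1.17.1. Library ratios used a pseudocount of 1 TPM and genes with at least 50 expected counts in either library. Ratios of counts were scaled by the total gene counts of each library, 33665128 and 39953610, with rounded counts for exact binomial intervals (95%). Levels have exact Poisson intervals, and a count of 0 has a floor of 3 counts. These cover counting error only. edgeR 4.0.16 and DESeq2 1.42.0 in R 4.3.3 gave scaling factors only, from rounded expected counts. The ratio and interval steps were tested on simulated data. Forkhead genes were named by rule, and some items are not reported here. Of each context list up to 4 of the highest genes, and those below a TPM of 1, could be named, and neighbours were named if they start within 5 kb on the opposite strand and are above 0. Transcripts were named for members at a mean of 5 TPM whose second transcript holds at least 10% of the gene. Shh, Lin54, Prss2, Ahsg, Gm20388, Foxm1-201 and the second Foxa3 transcript fall outside these rules and were named after their values were seen.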

Additional observations from a re-analysis of the deposited data

How the results depend on the processing

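The 21 detected members, the 10 at a TPM of 10 or more, and the 11 of 14 paralog pairs more than 1.5-fold apart in both libraries stayed within 1.5 times under every alternative tried. The summed level was 400 TPM, and it was 491 after rescaling over protein-coding genes, 276 in FPKM and 338 over complete coding transcripts, an alternative chosen after seeing the data. In that sum the mesenchymal share was 35.4%, the FoxP share 24.8% and the FoxK, FoxJ and FoxN share 18.5%. The FoxP share was 29.0% by posterior mean TPM. No member was over 1.5-fold apart between the libraries; 1 was with a pseudocount of 0.1 (Foxd3), 1 with spike-in scaling (Foxa1) and 1 with the lower fold limit (Foxa1). The median share of the leading transcript was 64.35%, and it was 61.5% by posterior means, 77.2% over protein-coding transcripts, 78.85% by expected counts, and 64.1% to 66.6% without either replicate. Transcripts not annotated as protein-coding held 9.07% of the TPM, 10.3% by posterior means and 3.44% of the counts. Among single genes, shares and lists, 219 recomputed values stayed within their limit, which is 1 SD between the libraries for a level, share or ratio and 1.5 times for a count. Past it went 34, many levels, shares and ratios by a small amount since the SD of 2 libraries can be very small. No log2 ratio between paralogs changed its sign. Lists without a detected gene depended on the cutoff. At a TPM of 0.5, 2 T cell markers, 2 genes of multiciliated cells and 1 kidney gene were detected. By posterior mean TPM 1 T cell marker and 1 kidney gene were, and without replicate 1, 1 gene of multiciliated cells was. The causes were not tested. The order of Foxp4 and Foxf2, which changed over complete coding transcripts, was not among these values. Depth limits levels at or under the floor of 3 counts, which is 0.0298 to 0.163 TPM for the 17 members with up to 5 counts, and 2 libraries limit every spread. No paired analysis was possible because there is 1 group.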
